A study of Mus musculus with 12 samples.

Results

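The 50 genes described here encode the machinery that carries newly made secretory proteins into the endoplasmic reticulum (ER) and onward to the Golgi: signal recognition (7 genes), the translocon and the translocon-associated protein (TRAP) complex (10), signal peptidase (5), the COPII coat (11), the COPI coat (7), and cargo receptors with 1 Golgi matrix gene (10). They are a list of gene symbols, and all 50 had a row among the 14219 genes of the deposited table. Plasma cells had been sorted from the bone marrow of C57BL/6 BLTcre.mcl1fl/+ mice, in which tamoxifen switches on a human CD4 reporter. Human CD4+ cells are called marked and human CD4- cells unmarked. The 12 libraries fall into 4 groups of 3: marked and unmarked cells 60 days after tamoxifen, and marked and unmarked cells 270 days after it. All groups carry the Cre and 1 floxed copy of Mcl1 and all received tamoxifen, so marking and any recombination of that copy cannot be told apart. Neither the sort gates nor the promoter behind BLTcre nor the ages of the mice are given in the labels.

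A secretory protein is recognised as its signal sequence leaves the ribosome. The signal recognition particle (SRP) docks the ribosome at its receptor, the Sec61 channel takes in the chain, and signal peptidase removes the signal. COPII coats then bud vesicles from ER exit sites with cargo picked by Sec24 subunits and by receptors such as Lman1, while COPI coats return receptors and escaped ER residents that KDEL receptors hold. Plasma cells secrete antibody in bulk and depend on this route. XBP1 and ATF6, transcription factors of the unfolded protein response, are known to act on many of these genes.

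Promoter windows in the RefSeq table (build GRCm38.p6), 250 bases before to 50 after the annotated start, matched 38 of the 50 genes with 40 windows, as 2 genes (Sec23b and Sec31a) have more than 1. The counts below are of genes with a match in any window. The element TGACGTGG, bound by XBP1 and ATF6, was present on either strand for 5 of 38 genes (13.2%), against 1.08% of the 9639 genes of the table that have a window. Its core ACGTG, which lies inside that element, was found for 26 of 38 (68.4%), against 29.3% of those 9639 genes. By role, it was found for 9 of 11 COPII genes, 5 of 6 COPI genes, 4 of 7 translocon and TRAP genes, 4 of 6 cargo receptor genes, 3 of 5 signal recognition genes and 1 of 3 signal peptidase genes. The ER stress elements ERSE (CCAAT, any 9 bases, CCACG) and ERSE-II (ATTGG, any 1 base, CCACG) were found for 0 of 38 genes, with 0.176% and 0.083% of the 9639 genes holding them. A match in these letters is a description of the window and not a binding site. The 5 windows with the full element are shown from 75 bases before to 25 after the start. None of these 5 genes passed the test in any comparison below. Copa, the 1 gene of the 50 that passed, has neither the element nor its core in its window. Sec24a, with the most negative averaged fold change, has the core without the full element. Each is written along its own gene, with the element in capitals, which reads CCACGTCA where it lies on the other strand.
Sec24d, chr3:123267421-123267520, plus strand: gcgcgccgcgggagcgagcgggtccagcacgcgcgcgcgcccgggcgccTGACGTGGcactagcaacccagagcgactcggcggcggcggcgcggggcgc
Sec23a, chr12:59011993-59012092, minus strand: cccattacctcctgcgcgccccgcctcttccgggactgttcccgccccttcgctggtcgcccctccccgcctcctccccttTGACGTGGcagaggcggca
Copb1, chr7:114254656-114254755, minus strand: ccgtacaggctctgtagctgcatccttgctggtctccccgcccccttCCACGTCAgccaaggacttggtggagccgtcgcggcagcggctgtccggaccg
Copb2, chr9:98563656-98563755, plus strand: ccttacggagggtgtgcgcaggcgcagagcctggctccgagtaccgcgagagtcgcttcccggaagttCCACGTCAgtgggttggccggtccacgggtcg
Kdelr3, chr15:79516333-79516432, plus strand: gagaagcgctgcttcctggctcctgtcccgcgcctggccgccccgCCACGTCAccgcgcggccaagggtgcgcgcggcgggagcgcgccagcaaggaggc

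The deposited values are CPM, reads of a gene scaled to a common library total, behind which lie 7449468 to 15943546 reads per library on genes of the table. The 50 genes took 1.74% to 2.32% of these reads. Features resembling ribosomal RNA took 30% of the reads of marked library 2 of day 270 and 12% of those of marked library 2 of day 60, against 0.237% to 3.18% in the other 10 libraries. Of the 50 genes, 25 had their lowest CPM in marked library 2 of day 270. Markers of plasma cells were all 9 present and summed to 90572 to 326497 CPM, most of it Jchain, while B cell markers reached at most 374 CPM, erythroid markers 788, neutrophil markers 773, and monocyte and macrophage markers 622. Of the 9 plasma cell markers, 3 were higher in marked cells at day 60 and 1 at day 270, against 36.1% and 30.8% of all genes tested. Their sum was 214738 to 326497 CPM in marked and 230341 to 259611 CPM in unmarked libraries of day 60. At day 270 it was 90572 to 220618 CPM in marked and 178832 to 231630 CPM in unmarked libraries. The erythroid sum was 107 to 346 CPM in marked and 37.3 to 62.9 CPM in unmarked libraries of day 60, and 179.7 to 788 CPM in marked and 28.5 to 166 CPM in unmarked libraries of day 270, so that the groups did not overlap on either day. Of 7 erythroid markers, 5 were higher in marked cells at day 60 and 7 at day 270. Of 8 neutrophil markers 7 were higher in marked cells on each day, and of 8 monocyte and macrophage markers 5 at day 60 and 8 at day 270, with sums that overlapped. The part of these differences in the results was not tested. In bulk RNA, fewer cells of a type and less RNA per cell cannot be told apart.

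Transcripts of the translocation machinery were among the most abundant of the cell. Per kilobase of principal transcript, 5 of the 50 genes stood among the 100 highest of 11917 coding genes and 35 among the 1000 highest, with a median rank of 560.5. Ssr4, the delta subunit of TRAP, led with 2678 CPM per kb over the 12 libraries and ranked 11, followed by the signal peptidase genes Sec11c (1625 CPM per kb) and Spcs1 (1378 CPM per kb). The lowest signal peptidase gene was Sec11a (94.8 CPM per kb). Sec61b, the beta subunit of the channel, had 582 CPM per kb and Sec61a1, which forms the pore, 381. Values of Sec61b and of Sec61g, the gamma subunit (7.25 CPM per kb), are uncertain, since 41.0% and 20.5% of the 50-base stretches of their transcripts also occur in other annotated genes, listed under Gm symbols. The same holds for 32.4% of Tmed10, 28.4% of Srprb, 27.6% of Tmed2, 19.9% of Srpr, 15.5% of Srp9 and 11% of Arcn1, so their values are uncertain too. Cope, the epsilon subunit of COPI, had 413 CPM per kb and Copg1, a gamma subunit, 49.1. In COPII, levels ran from 169 CPM per kb for Sar1a, the GTPase that starts the coat, to 7.58 for Sec24b. The signal recognition genes ranged from Srp14 (359 CPM per kb) to Srp68 (46.1 CPM per kb), and the cargo genes from Tmed10, a p24 family receptor (403 CPM per kb), to Golgb1, which encodes the Golgi matrix protein giantin (6.34 CPM per kb).

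The coefficient of variation of CPM over all 12 libraries had a median of 14.8% for the 50 genes (range 7.46% for Sec13, an outer coat protein of COPII, to 28.9% for Sec61g), against 25.1% for the 7820 genes that averaged at least 10 CPM. The genes of the larger set were not matched on level, and the 50 genes had a median level of 258 CPM. The plot of all 50 genes by library shows none of the 4 groups departing as a whole. It shows marked library 2 of day 270 low across most rows, and marked library 1 of day 60 high for signal peptidase genes and low for Sec24a, Sec24b, Sec31a and Srp72.

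**Figure D1:**
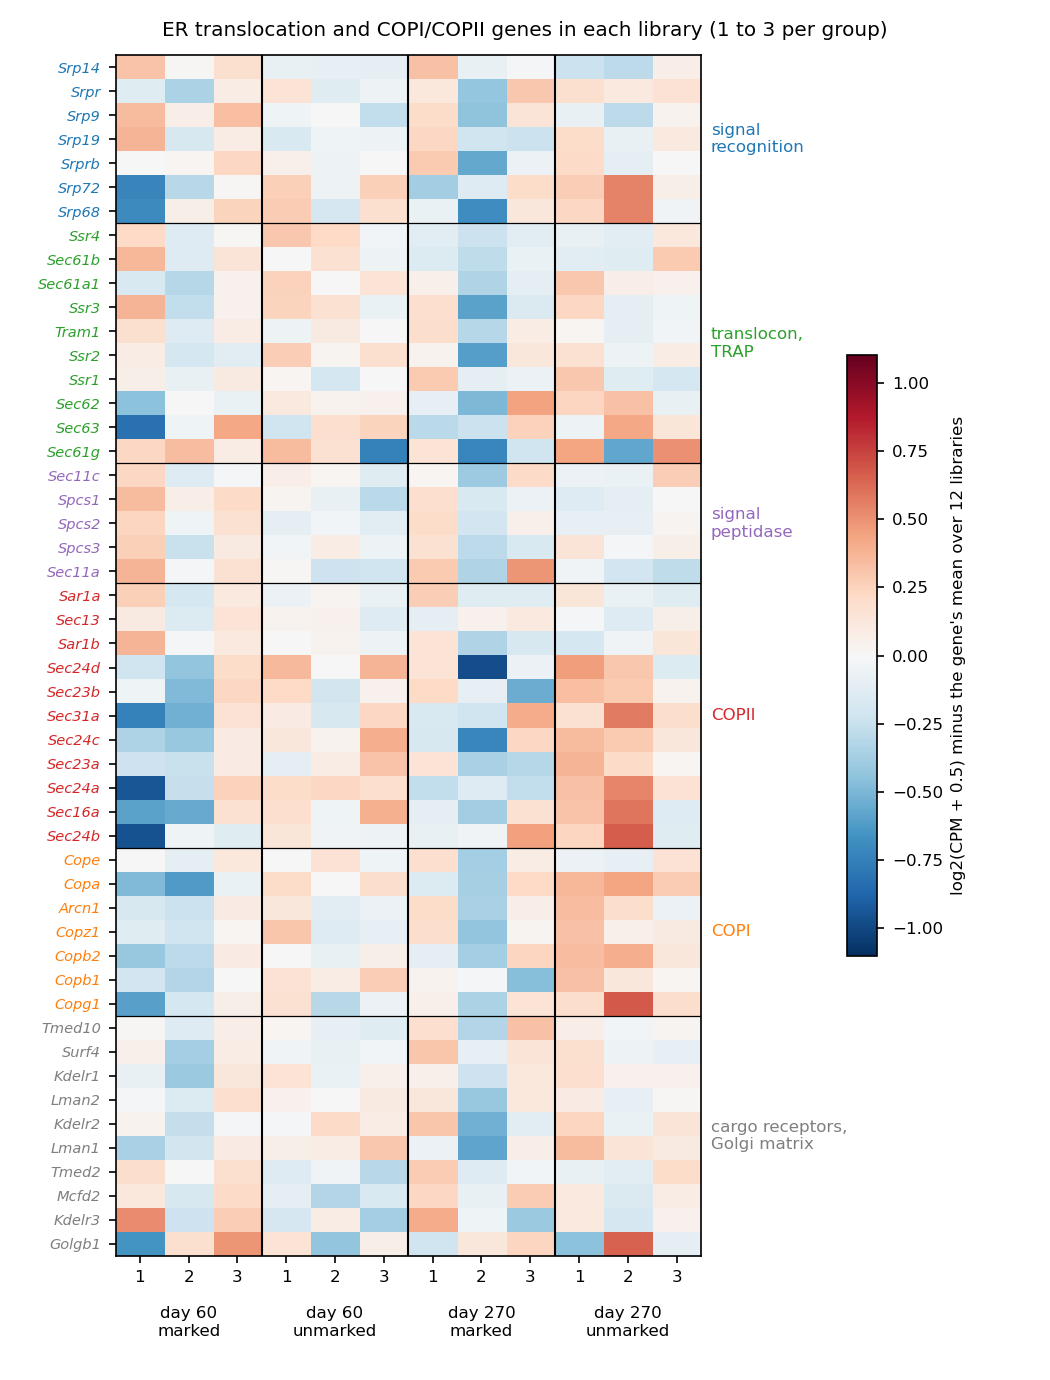
Each row is 1 of the 50 genes, grouped by role, and each column 1 of the 12 libraries; colour gives log2(CPM + 0.5) minus the gene's mean over the 12 libraries. Marked library 2 of day 270, in which 25 genes had their lowest CPM, is blue across most rows.

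Marked cells sorted 60 days after tamoxifen were first compared with unmarked cells that share their specimen numbers in the labels. None of the 50 genes passed the test at day 60 (limma on log2(CPM + 0.5), Benjamini-Hochberg adjusted p under 0.05 over all 12704 genes tested), where 0.189% of all genes passed. The 50 genes had a median log2 fold change of -0.08 and 21 were positive, against a median of -0.13 over all genes. With TMM scaling, which estimates library factors from most genes, their median turned to 0.05 and 28 were positive, against a median of -0.01 over all genes. For 48 of the 50 the 95% interval of the fold change lay within a factor of 2 in either direction, against 39.5% of all genes tested. All genes tested were not matched to the 50 on level, here and in the interval shares below. An unadjusted p under 0.05 was found for 5 of the 50 (10%), against 6.45% of all genes. The estimates furthest above 0 were Srp9 (0.36 ± 0.18, standard error from limma), Kdelr3 (0.35 ± 0.28) and Spcs1 (0.32 ± 0.15), and those furthest below were Copa (-0.53 ± 0.18), Sec24a (-0.52 ± 0.23) and Sec16a (-0.50 ± 0.23). In the authors' deposited table of this comparison, 0 of the 50 had an FDR under 0.05, and the lowest were 0.256 for Spcs1 and 0.267 for Copa.

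At day 270, of the 50 genes 0 passed, where 0.48% of all genes passed. An unadjusted p under 0.05 was found for 4 of the 50 (8.0%), against 14.0% of all genes. Their median log2 fold change was -0.15 with 14 positive, against -0.22 over all genes. With TMM scaling it was -0.02 with 20 positive, against -0.10 over all genes. The 95% interval stayed within a factor of 2 for 47. The estimates furthest above 0 were Sec11a (0.32 ± 0.20), Srp14 (0.23 ± 0.16) and Mcfd2 (0.13 ± 0.17), and those furthest below were Sec24a (-0.57 ± 0.23), Sec24d (-0.50 ± 0.25) and Sec24c (-0.48 ± 0.21). The difference between the marking effects of the 2 days was tested for every gene: 0 of 50 passed, 0 had an unadjusted p under 0.05, against 3.05% of all genes, and 0.0% of all genes passed. Widest apart was Sec61g (interaction -0.68 ± 0.59, standard error from limma, adjusted p 0.9999), followed by Kdelr3 and Srp19, at -0.35 ± 0.40 and -0.33 ± 0.27. On the positive side were Sec24b (0.25 ± 0.40), Sec16a (0.14 ± 0.33) and Surf4 (0.14 ± 0.23).

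Averaging the 2 days, with 6 marked and 6 unmarked libraries, 1 of the 50 genes passed, lower in marked cells, where 1.84% of all genes passed, so that the share of the 50 was near that of all genes. An unadjusted p under 0.05 was found for 13 of the 50 (26%), against 16.9% of all genes. All 50 intervals then lay within a factor of 2, against 54.1% of all genes, which were not matched on level. The gene was Copa (ENSMUSG00000026553, GRCm38 chromosome 1, 172082529 to 172122330, plus strand), the alpha subunit of COPI, which binds retrieval signals on cargo tails. At day 60 Copa had 362, 329 and 482 CPM in marked libraries, against 582, 508 and 580.3 CPM in unmarked ones. At day 270 it had 456, 393 and 589.9 CPM in marked libraries, against 652, 687 and 615 CPM in unmarked ones. The groups did not overlap on either day, and the marked library was lower in 6 of 6 specimen pairs. The log2 fold change was -0.49 ± 0.12 (standard error, 95% interval -0.75 to -0.23, adjusted p 0.0492), that is a ratio of 0.71 between marked and unmarked cells. This is under total scaling, where the median over all genes was -0.18. With TMM scaling the log2 fold change of Copa was -0.36, against a median of -0.06 over all genes, and with DESeq2 it was -0.35.

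The Copa call sits at the threshold. With the specimen as a fixed block, its adjusted p was 0.0629, and with the specimen as a random block 0.0487. Over the 12 fits that each left out 1 library, it ranged from 0.0147 to 0.144 and the call was lost in 9, namely without marked library 1 or 2 or any unmarked library of day 60, and without marked library 1 or any unmarked library of day 270. Without the marked libraries 2 of both days it was 0.105, and with libraries 2 and 3 of each group alone 0.446. Among the 26 alternatives that gave a value, Copa passed in 10 and did not pass in 16, and the sign was negative in all 26. Of the exonic sequence of Copa, 9.6% overlaps that of Ncstn and Gm37756, summed over both genes. Both lie on the other strand, and whether reads were counted by strand is not given in the sources used here.

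**Figure D2:**
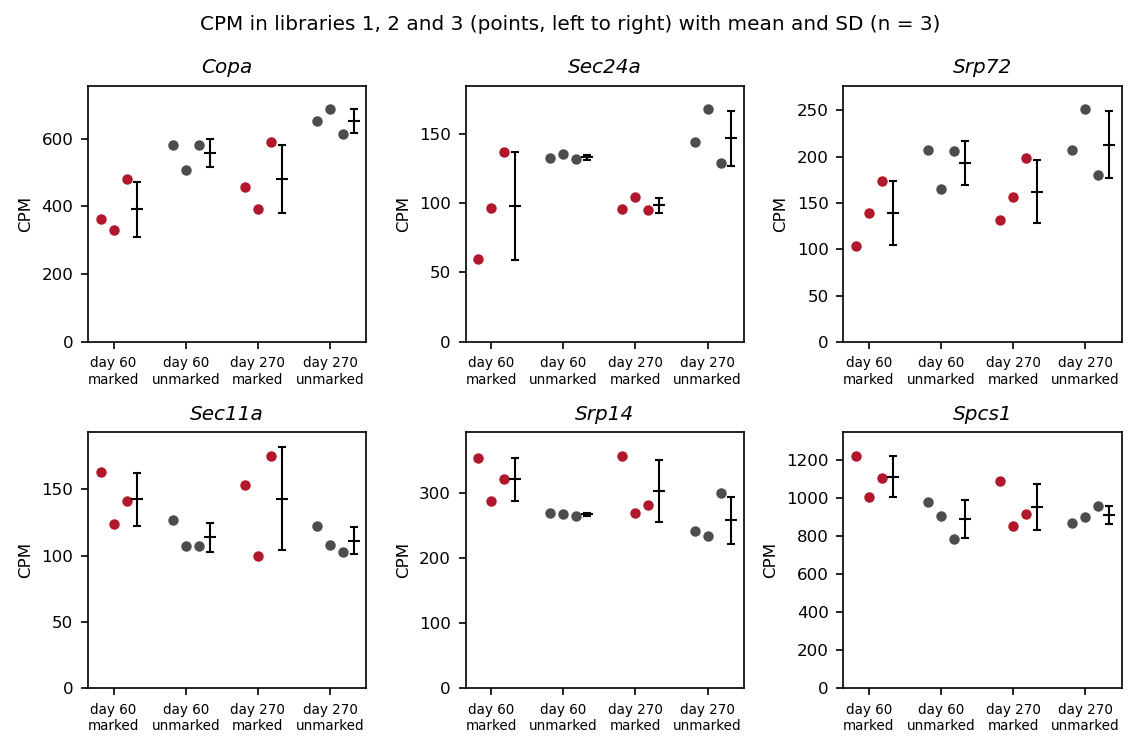
CPM of 6 genes in each library (points, libraries 1 to 3 from left to right), with the mean and SD of each group (n = 3) beside them; marked cells are red and unmarked cells grey. For Copa every marked point lies below every unmarked point of its day, while for Sec11a and Srp72 the groups of day 270 overlap.

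All 7 COPI genes had a negative log2 fold change on both days. Of them 0 passed on either day and 1 in the averaged days, where 1.84% of all genes passed. With TMM scaling 5 of 7 were negative at day 60 and 6 of 7 at day 270. The median of the averaged days was -0.28, against -0.18 over all genes, of which 29.6% were positive. With TMM scaling 6 of 7 were negative in the averaged days (median -0.15, against -0.06 over all genes), Cope being the exception. Copb1, a beta subunit, had 236, 218 and 274 CPM in marked libraries of day 60, against 304, 288 and 330.3 CPM in unmarked ones, and these did not overlap. At day 270 its values were 281, 270.0 and 197 CPM in marked libraries, against 341, 298 and 278 CPM in unmarked ones, where marked library 1 lay above unmarked library 3. Its averaged log2 fold change was -0.33 ± 0.12 and did not pass (adjusted p 0.182). Cope stayed near 0, with a log2 fold change of -0.03 ± 0.11 and a 95% interval of -0.28 to 0.21.

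Of the 11 COPII genes 0 passed, where 1.84% of all genes passed in the averaged days. In the averaged days 8 of 11 were negative and 3 (27.3%) positive, under total and under TMM scaling alike, against 29.6% positive over all genes under total scaling. The COPII median was -0.30, against -0.18 over all genes. With TMM scaling it was -0.17, against -0.06 over all genes. The negative ones included the cargo-binding Sec24 subunits, the outer coat gene Sec31a and the exit site scaffold Sec16a, and the positive ones were Sar1a, Sar1b and Sec13. Sec24a (chromosome 11, 51692264 to 51763634, minus strand) had 59.6, 96.7 and 137 CPM in marked libraries of day 60, against 132, 135 and 131 CPM in unmarked ones. At day 270 Sec24a had 95.3, 104 and 95.2 CPM in marked libraries, against 144, 168 and 128 CPM in unmarked ones. Its day 60 groups overlapped through marked library 3 and its day 270 groups did not. The averaged log2 fold change was -0.54 ± 0.16 (adjusted p 0.105), the most negative of the 50, and without marked library 3 of day 60 it passed, at -0.69 with an adjusted p of 0.0226. Among the alternatives that gave a value, Sec24a passed in 2 and did not pass in 24. With libraries 2 and 3 of each group alone its adjusted p was 0.489. The GTPase gene Sar1b had 179 ± 24.9 CPM in marked and 159 ± 5.17 CPM in unmarked cells of day 60, and 148 ± 25.5 CPM in marked and 156 ± 17.6 CPM in unmarked cells of day 270 (mean ± SD, n = 3). Its averaged log2 fold change was 0.04 ± 0.12.

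Sec24d had an averaged log2 fold change of -0.45 ± 0.18, Sec24c of -0.44 ± 0.15 and Sec24b of -0.27 ± 0.20, none of which passed. Sec16a had -0.43 ± 0.17 and Sec31a -0.36 ± 0.16. Against this, Sec13 had 0.05 ± 0.11 and Sar1a 0.06 ± 0.12, with intervals of -0.18 to 0.27 and -0.18 to 0.30. The inner coat genes Sec23a and Sec23b had -0.30 ± 0.14 and -0.24 ± 0.15.

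**Figure D3:**
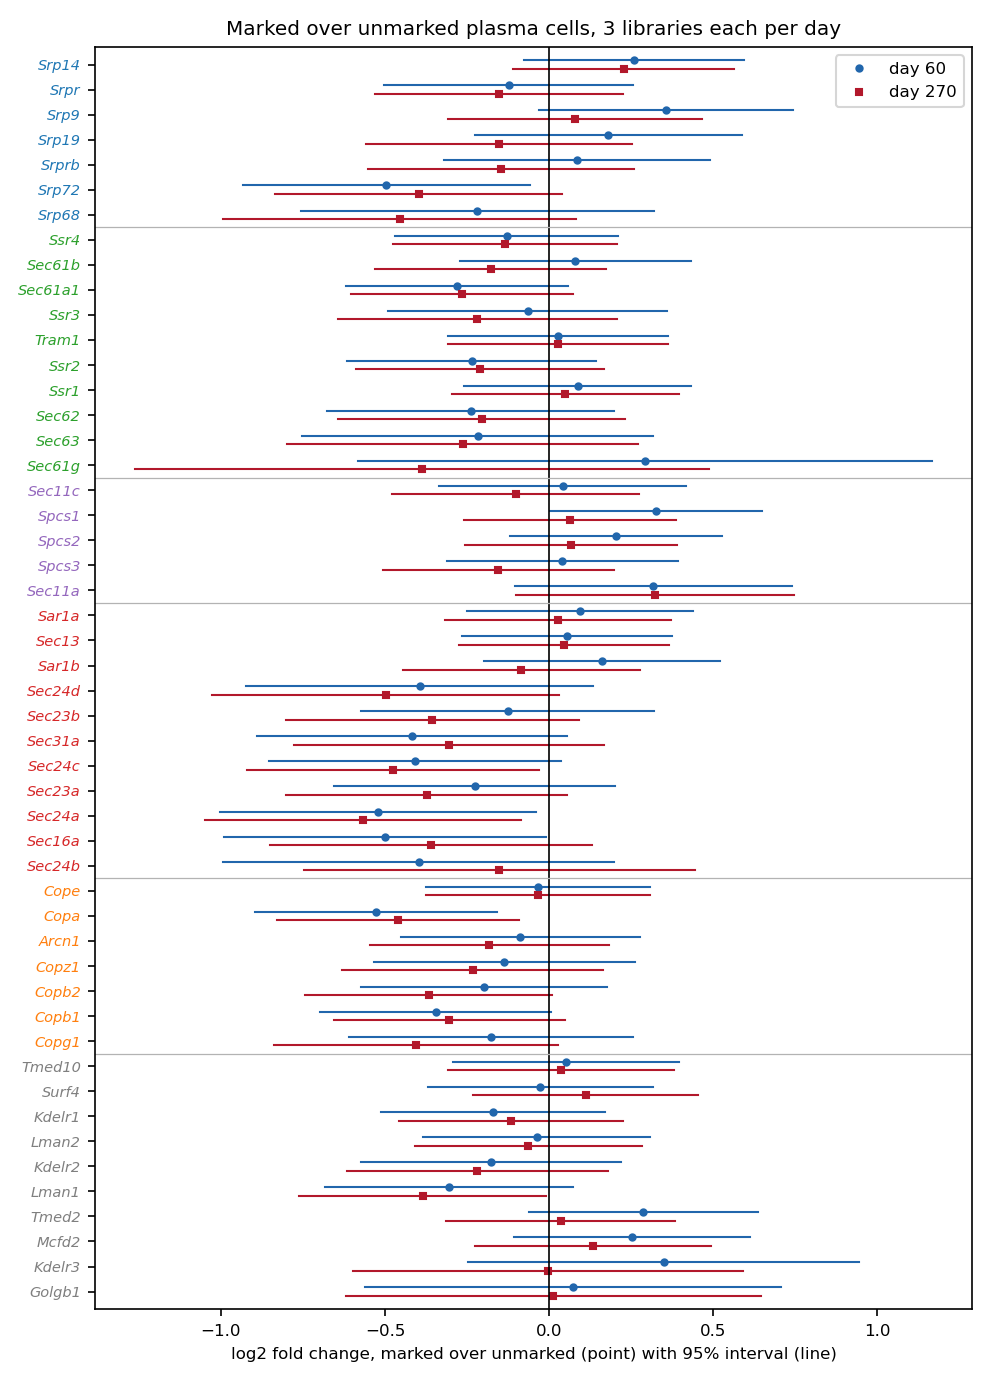
Log2 fold change of marked over unmarked cells for each of the 50 genes (points, day 60 circles and day 270 squares) with its 95% interval from limma (lines), 3 libraries per group. Most intervals cross 0, those of Copa and Sec24a lie below it on both days, and Sec61g has the widest.

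Of the 5 signal peptidase genes 0 passed, where 1.84% of all genes passed in the averaged days. At day 60 all 5 had a positive log2 fold change (median 0.20, against -0.13 over all genes), at day 270 it was 3 of 5, and in the averaged days 3 of 5 (median 0.13, against -0.18 over all genes). With TMM scaling 4 of 5 were positive at day 270. In the averaged days it was then 5 of 5 (median 0.26, against -0.06 over all genes). Sec11a, 1 of the 2 catalytic subunits, had 163, 123 and 141 CPM in marked libraries of day 60, against 127, 107 and 108 CPM in unmarked ones. At day 270 Sec11a had 153, 99.9 and 175 CPM in marked libraries, against 122, 108 and 103 CPM in unmarked ones, with marked library 2 below all 3 unmarked libraries. Its averaged log2 fold change, 0.32 ± 0.14, was the most positive of the 50 and did not pass (adjusted p 0.265). Without marked library 2 of day 270 it was 0.44 with an adjusted p of 0.0483. Among the alternatives that gave a value, Sec11a passed in 5 and did not pass in 21. With libraries 2 and 3 of each group alone its adjusted p was 0.620. Spcs1, a small accessory subunit, had 1224, 1009 and 1108 CPM in marked libraries of day 60, against 979.5, 908 and 784 CPM in unmarked ones, which did not overlap. Its day 60 log2 fold change was 0.32 ± 0.15 (adjusted p 0.771) and its day 270 one 0.06 ± 0.15; 16.3% of its exonic sequence overlaps Glt8d1. Sec11c, the other catalytic subunit, stayed near 0 with -0.03 ± 0.13 averaged over the days.

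Of the 7 signal recognition genes 0 passed, where 1.84% of all genes passed in the averaged days. In that average 3 were positive and 4 negative (median -0.03, against -0.18 over all genes, of which 29.6% were positive). With TMM scaling 4 were positive and 3 negative (median 0.10, against -0.06 over all genes). Srp14, a small subunit of the Alu domain, had 353, 287 and 321 CPM in marked libraries of day 60, against 269, 267 and 264 CPM in unmarked ones, which did not overlap. At day 270 Srp14 had 356, 269 and 281 CPM in marked libraries, against 241, 233 and 299 CPM in unmarked ones, and these overlapped. Its averaged log2 fold change was 0.24 ± 0.11 (adjusted p 0.287). Its partner Srp9 had 0.22 ± 0.13 (adjusted p 0.416), and Srp19, which helps assemble the particle, 0.01 ± 0.14. Srp72, part of the S domain, had 104, 139 and 174 CPM in marked libraries of day 60, against 207, 165 and 207 CPM in unmarked ones, which overlapped through marked library 3. At day 270 Srp72 had 132, 156 and 199 CPM in marked libraries, against 207, 251 and 180.0 CPM in unmarked ones, overlapping again. Its averaged value was -0.45 ± 0.15 (adjusted p 0.142), and its partner Srp68 had -0.34 ± 0.18, higher in the marked library of 3 of 6 pairs. Differences between these genes were not tested. The receptor genes Srpr and Srprb had -0.14 ± 0.13 and -0.03 ± 0.14.

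In the translocon, 0 of 10 genes passed, where 1.84% of all genes passed in the averaged days. All averaged log2 fold changes lay between -0.27 and 0.07. The lowest was Sec61a1, with 1065, 962 and 1237 CPM in marked libraries of day 60, against 1430.0, 1197 and 1329.9 CPM in unmarked ones. At day 270 it had 1243, 949.7 and 1112 CPM in marked libraries, against 1467, 1258 and 1235 CPM in unmarked ones. Under total scaling the marked library was lower in 6 of 6 pairs, with a log2 fold change of -0.27 ± 0.11 that did not pass (adjusted p 0.236). The TRAP genes Ssr1 to Ssr4 ran from -0.22 ± 0.13 (Ssr2) to 0.07 ± 0.12 (Ssr1). Tram1, a membrane protein beside the channel, had 0.03 ± 0.11, and Sec62 and Sec63, which serve post-translational import, had -0.22 ± 0.15 and -0.24 ± 0.18.

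Of the 10 cargo receptor and matrix genes 0 passed, where 1.84% of all genes passed in the averaged days. In that average 6 were positive and 4 negative (median 0.04, against -0.18 over all genes, of which 29.6% were positive). With TMM scaling 7 were positive and 3 negative (median 0.17, against -0.06 over all genes). Lman1 (ERGIC-53) and Mcfd2, which form 1 receptor complex for coagulation factors, had opposite signs in every pair: Lman1 was lower in the marked library of 6 of 6 pairs and Mcfd2 higher in 6 of 6. Lman1 averaged 425 ± 67.9 CPM in marked and 523 ± 48.5 CPM in unmarked cells of day 60, and 420.4 ± 94.8 CPM in marked and 541 ± 51.4 CPM in unmarked cells of day 270 (-0.35 ± 0.13, adjusted p 0.187). Mcfd2 averaged 148 ± 20.1 CPM in marked and 124 ± 9.41 CPM in unmarked cells of day 60, and 158 ± 20.9 CPM in marked and 144 ± 14.3 CPM in unmarked cells of day 270 (0.19 ± 0.12, adjusted p 0.446). Neither passed. Surf4, a receptor for soluble cargo, had 0.04 ± 0.12 and Lman2, a lectin of the same route, -0.05 ± 0.12.

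Groups that did not overlap were found for few of the 50 genes. Such small counts cannot show whether their shares differ from those over all genes. Every marked library of day 60 lay above every unmarked one for 4 of 50 genes (Spcs1, Srp14, Srp9 and Tmed2), 8.0% against 4.46% of all genes. Every one lay below for 3 (Copa, Copb1 and Sec62), 6.0% against 11.3%. At day 270 it was 0 of 50 above, against 3.28% of all genes, and 5 of 50 below (Copa, Copg1, Lman1, Sec24a and Ssr4), 10% against 12%. Over the 6 specimen pairs, the marked library was higher in all 6 for Mcfd2 alone, 2.0% against 1.85% of all genes. It was lower in all 6 for 5 genes (Copa, Copb1, Lman1, Sec23a and Sec61a1), 10% against 7.64%. These counts and the pair counts above rest on total scaling and were not repeated with TMM scaling. In pair 2 of day 270 the TMM factors were 0.828 for the marked and 1.15 for the unmarked library. Dividing by them raises the marked library against the unmarked one, so small negative differences there can change sign. In that pair the 5 genes ran from -0.80 (Copa) to -0.14 (Copb1) on the log2 scale.

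The sign of the fold change went with transcript length. Among the 50 genes, 18 have a principal transcript under 2 kb, and 12 of these were positive at day 60, as were 7 of the 18 of 2 to 4 kb and 2 of the 14 of 4 kb and over. Of the 7444 coding genes tested that averaged at least 10 CPM, 51.7%, 30.5% and 20.2% were positive in these length classes at day 60. At day 270 the counts among the 50 were 6 of 18, 6 of 18 and 2 of 14, against 40.2%, 28.3% and 23.0%. Spearman's rho between length and the averaged log2 fold change was -0.56 over the 50 genes, and over the 11096 coding genes tested it was -0.21. Over the 7444 coding genes that averaged at least 10 CPM, as all 50 did, it was -0.31. Genes share libraries, so no p is given. The relation was not the same in every pair: rho over the 50 genes was -0.69, -0.22 and -0.45 in pairs 1 to 3 of day 60, -0.58 and -0.58 in pairs 1 and 2 of day 270, and 0.37 in pair 3 of day 270. The part of transcript length in the results above was not tested. Copa (4622 bases), Sec24a (6581 bases) and Srp72 (3625 bases) lie on the long side, and Srp14 (798 bases), Spcs1 (702 bases) and Sec11a (1345 bases) on the short side.

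**Figure D4:**
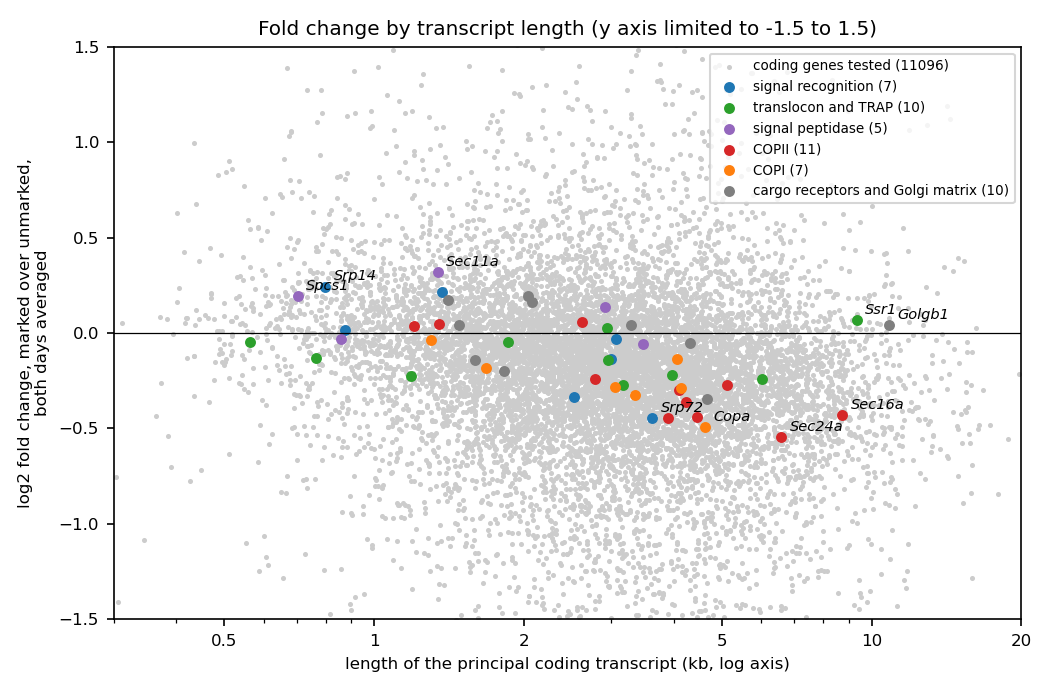
Averaged log2 fold change of marked over unmarked cells against the length of the principal coding transcript (log axis), with the 50 genes coloured by role over the 11096 coding genes tested in grey. Of the 14 genes of 4 kb and over, 2 were above 0, and the median of all coding genes falls from -0.06 under 2 kb to -0.28 at 4 kb and over.

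The same secretory gene often exists as paralogs, and their proportions are given per library in the plot of shares. Sec11c made up 94.0% ± 0.119 of the Sec11 transcripts in marked and 94.97% ± 0.326 in unmarked cells of day 60, and 93.7% ± 0.457 in marked and 95.2% ± 0.901 in unmarked cells of day 270 (shares of CPM per kb, mean ± SD, n = 3). Among Sec24 genes, Sec24d held 40.1% to 54.4% in every library, Sec24c 30.2% to 38.2%, Sec24a 8.35% to 18.4% and Sec24b 3.43% to 8.26%. Sec23b held 74.8% to 81.9% of the Sec23 transcripts, the rest being Sec23a, and Sar1a 51.4% to 61.3% of the Sar1 transcripts, the rest being Sar1b. Of the KDEL receptors, Kdelr1 held 56.9% to 65.7%, Kdelr2 28.6% to 37.4% and Kdelr3 4.10% to 8.00%. The order within each set was the same in all 12 libraries.

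**Figure D5:**
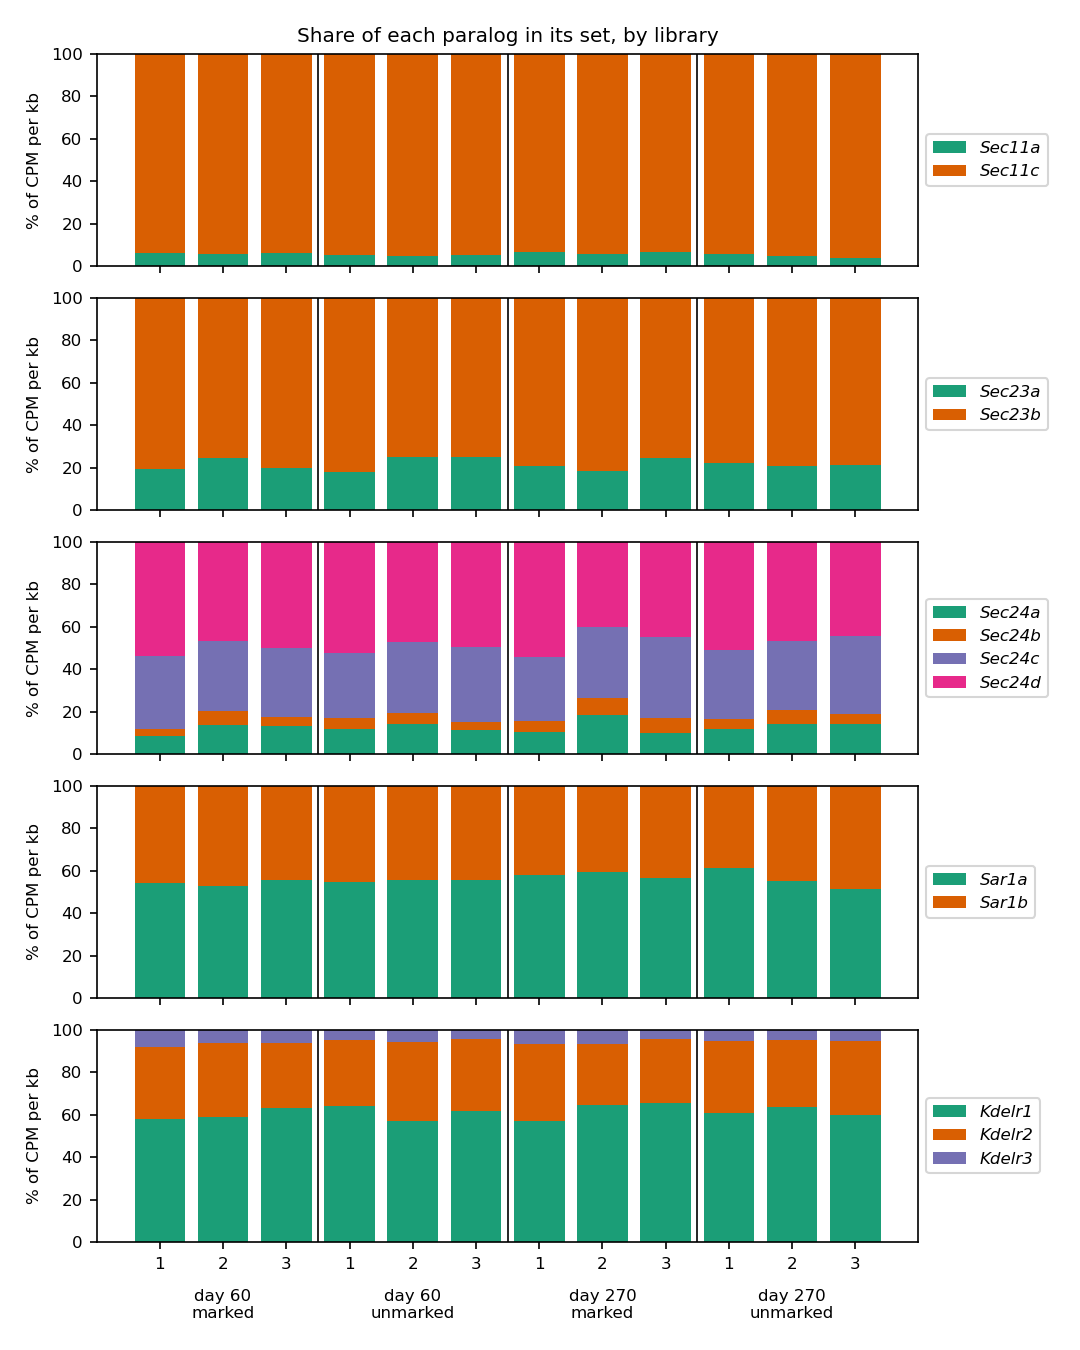
Share of each paralog in its set, as a percentage of the set's CPM per kb, in each of the 12 libraries. Sec11c, Sec23b, Sec24d, Sar1a and Kdelr1 hold the most in their sets in every library.

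Between day 270 and day 60, 0 of 50 genes passed in marked cells, where 0.0315% of all genes passed. In unmarked cells it was 0 of 50, where 0.0% of all genes passed, and for both populations averaged 0 of 50, where 0.189% passed. An unadjusted p under 0.05 was found for 0, 0 and 1 of the 50 in these comparisons, against 9.64%, 2.98% and 8.53% of all genes. By role, the median log2 fold change of the populations averaged ran from -0.07 for the translocon and TRAP to 0.13 for COPI, with 0.07 over all genes. Copg1 averaged 194 ± 34.0 CPM at day 270 and 171 ± 38.1 CPM at day 60 in marked cells, and 257 ± 52.3 CPM at day 270 and 191 ± 31.5 CPM at day 60 in unmarked cells (averaged log2 fold change 0.31 ± 0.15, adjusted p 0.581). In that average the estimates furthest above 0 beside it were Sec24b (0.37 ± 0.20) and Sec31a (0.32 ± 0.16), and those furthest below were Ssr4 (-0.19 ± 0.11), Sec61b (-0.16 ± 0.12) and Ssr3 (-0.16 ± 0.14). In marked cells alone, Sec24b (0.49 ± 0.28), Sec31a (0.38 ± 0.22) and Copa (0.29 ± 0.18) were furthest above 0, and Sec61g (-0.48 ± 0.42), Sec61b (-0.29 ± 0.17) and Srp9 (-0.28 ± 0.18) furthest below. In unmarked cells alone, it was Copg1 (0.42 ± 0.21), Copb2 (0.29 ± 0.18) and Sec31a (0.26 ± 0.22) above, and Ssr4 (-0.19 ± 0.16), Ssr2 (-0.10 ± 0.18) and Ssr3 (-0.08 ± 0.20) below. The 95% interval lay within a factor of 2 for all 50 genes when the populations were averaged, against 58.3% of all genes, not matched on level.

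The comparison of day 270 marked with day 60 unmarked cells, in which marking and time differ together, was deposited by the authors as a table of 265 genes, which holds 0 of the 50. Refitted over all genes, 0 of 50 passed, where 1.54% of all genes passed. An unadjusted p under 0.05 was found for 1 of the 50 (2.0%), against 14.4% of all genes. The lowest log2 fold changes were those of Sec24d (-0.54 ± 0.25), Sec24a (-0.44 ± 0.23) and Sec24c (-0.41 ± 0.21), and the highest those of Tmed2 (0.20 ± 0.17), Sec11a (0.29 ± 0.20) and Mcfd2 (0.35 ± 0.17), the last with 158 ± 20.9 CPM in day 270 marked and 124 ± 9.41 CPM in day 60 unmarked cells. These comparisons share samples with those above and are not independent of them.

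Related genes outside the 50 were counted from 2 lists. Of 38 further translocation genes tested (membrane insertion, oligosaccharyltransferase and chaperone subunits), 0 passed in any of the 8 comparisons, and the averaged days gave a median log2 fold change of -0.02 with 18 positive. Of 54 further transport genes (other p24 proteins, ARF and RAB GTPases, SNAREs and tethers), 1 passed in 1 comparison, the averaged days, a share near the 1.84% of all genes that passed there. This was Sec23ip, a partner of the Sec23 and Sec24 coat layer. It had 59.8, 67.5 and 64.6 CPM in marked libraries of day 60, against 95.1, 81.8 and 103 CPM in unmarked ones. At day 270 it had 73.9, 55.6 and 90.3 CPM in marked libraries, against 123, 103 and 103 CPM in unmarked ones. The groups did not overlap on either day (log2 fold change -0.57 ± 0.14, adjusted p 0.0439).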

How the data were processed

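Per the file headers, the authors deposited CPM in each library for 14219 genes, with a log2 fold change against day 60 unmarked cells and a p-value and FDR per gene. The authors also deposited whole-read counts of 230 genes, none of them among the 50. Per the labels' protocols, a TruSeq RNA kit followed RNeasy Micro extraction. GRCm38 and limma stand in the submitters' processing notes; aligner and read counter are not given in the sources used.

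Multiplying CPM by 1 total per library gave whole reads: of 151342 values below 1000 reads, 100% came within 0.05 of an integer. In R 4.3.3, log2(CPM + 0.5) of 12 libraries entered 1 limma fit (3.58.1, trended prior) with a coefficient per group, which understates fold changes of low genes. edgeR 4.0.16 (filterByExpr, minimum count 10) kept 12704 genes by their recovered reads, all 50 included. Tests were two-sided. Lengths, positions and overlaps are from GENCODE M21. No source says that libraries of 1 group come from separate mice, so p-values measure the spread between these libraries.

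Within a day, marked and unmarked libraries with 1 number share a specimen number in the labels. Their residuals correlated with a median of 0.0556 (range -0.0109 to 0.115, 6 pairs), against -0.0194 (range -0.104 to 0.0301) between specimens. The replicates numbered 1 have neighbouring library numbers; for replicates 2 and 3, unmarked libraries were numbered before marked ones, an order that goes with marking.

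Members and lists were chosen with earlier results of these data known. The text names every gene that passed, the 3 highest and 3 lowest fold changes of each comparison, the highest and lowest level per role, and the paralog sets; other names were chosen after their values were seen. The alternatives were 2 other pseudocounts, 2 other filters, TMM scaling, totals without features resembling ribosomal RNA and Jchain, the specimen block, library weights, fits on the compared libraries only, edgeR, DESeq2 1.42.0, limma-voom, and leaving out libraries.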

Additional observations from a re-analysis of the deposited data

How the results depend on the processing

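The count of the 50 genes that passed was 0 in every comparison other than marked over unmarked, averaged over the days, under every alternative run, except that library quality weights gave 1 (Copa) at day 60. In the averaged days it was 1 as reported, and 0 with a pseudocount of 0.1, with no filter on low values, with a mean of at least 5 CPM, with edgeR, with the specimen as a fixed replicate block and with libraries 2 and 3 of each group alone. It was 2 with TMM scaling and with limma-voom (Copa and Sec11a), 4 with library quality weights (Copa, Sec24a, Sec24c and Srp72), 6 with DESeq2 (Copa, Sec11a, Spcs1, Spcs2, Srp14 and Srp9) and 0 to 2 when 1 library was left out. The cause was not tested. The replicate block changed no other call among the 50 genes: with the specimen as a random block 1 passed. Over all genes, the averaged days gave 43 higher and 191 lower calls, and with TMM scaling 112 higher and 186 lower. TMM moved the median of all genes by about 0.12 on the log2 scale, so that 24 of the 50 genes were positive rather than 17. The 48 fold changes followed for their sign were the 3 highest and 3 lowest of each comparison. They were picked for lying furthest out on either side, so that changes of sign were less likely. Fold changes nearer 0 were outside the 48, and that of Cope in the averaged days turned positive with TMM scaling. Of 1254 recomputed values of the 48, 6 changed sign, none in a gene that passed. These were Ssr3 with library quality weights (0.012 in unmarked cells and 0.037 averaged, day 270 over day 60) and 3 genes in the interaction. The latter were Sec24b (-0.017 with libraries 2 and 3 alone, -0.043 to 0.45 when 1 library was left out), Surf4 (-0.00802 to 0.24 when 1 was left out) and Sec16a (-0.059 to 0.39 when 1 was left out). In windows of 200 bases before the start, TGACGTGG was found for 7.89% of the 38 genes with a promoter and 0.861% of all such genes in the table. Depth was 7449468 reads or more per library, at which the lowest gene, Sec61g, averaged 13.5 CPM.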
